A study of Drosophila melanogaster with 2 samples.

Results

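The nuclear genes of the oxidative phosphorylation complexes were examined for regions recovered with Hmx-eGFP. The members were the nuclear protein-coding genes whose symbol starts with ND-, UQCR-, COX or ATPsyn, together with SdhA, SdhB, SdhC and SdhD, and they numbered 84 of 13945 protein-coding genes on the chromosome arms. Complex I contributed 40 genes, complex II 4, complex III 9, complex IV 16 and complex V 15. Of the 84 genes, 21 were paralogs whose symbol is that of a subunit with a trailing L, such as ND-24L or COX7AL2. The symbol rule left out subunits with other names, among them blw, RFeSP and levy, which are treated separately.

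The samples were whole Drosophila melanogaster embryos of mixed sex, pooled from 0 to 24 h after egg laying. They belonged to the strain Hmx-MiMIC-GFP, in which an eGFP exon placed in an intron of Hmx produces an Hmx-GFP fusion. Chromatin immunoprecipitation followed by sequencing (ChIP-seq) recovered DNA bound by the fusion. It was done in 2 biological replicates, numbered 2 and 3, that formed 1 group with no second condition. According to the sample description the antibody was raised against GFP, although the antibody field names Hmx. The lists used here give no level for untagged embryos, and the control alignment against which regions were called was not analysed here. The lists hold regions of DNA rather than amounts of RNA. Embryos of this age span hold every tissue and stage of embryogenesis, so that a region cannot be assigned to a cell type.

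Oxidative phosphorylation takes place at the inner mitochondrial membrane. Complexes I and II pass electrons from NADH and succinate to coenzyme Q, complex III passes them on to cytochrome c, and complex IV passes them to oxygen, while complex V uses the resulting proton gradient to make ATP. Complex II is built from nuclear genes alone, whereas the other complexes combine nuclear subunits with subunits encoded in the mitochondrial genome. Hmx is a homeodomain transcription factor, a class of protein that commonly recognises short sites rich in A and T.

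A region list gives for each region a summit, the position of strongest enrichment, and a signal value on the scale of the authors' peak caller, which can be compared within a list but not between lists. The set that the authors deposited as passing the irreproducible discovery rate (IDR) procedure held 1607 regions, of which 1595 were nuclear, with signal from 78.4 to 1041 and a median of 110.5. The list from both pooled replicates and the list of each replicate held 30000 regions each and included background. A gene was counted as having a summit when one lay in its body or within 1 kb upstream. Depth was not given by these lists, and shares carry 95% Wilson intervals that cover counting error only.

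In the IDR set, 9 of the 84 members had a summit, each of them 1. For complexes I, IV and V the sequence at the strongest such summit is printed, and for complex II the weaker of its 2, at SdhC, because they show the DNA on which the counts below rest. No complex III gene had one. Each line is the summit base with 50 bases on either side, 5′ to 3′ on the strand of the member gene, from the RefSeq copy of the dm6 assembly, and capitals mark runs of 6 or more A or T letters. All 4 windows lay upstream of the member's own start in DNA between genes, namely chr2L:6062844-6062944 (minus strand) for ND-51, chr3R:11209897-11209997 (minus strand) for SdhC, chr3L:17425338-17425438 (plus strand) for COX7B and chr3R:14326790-14326890 (plus strand) for ATPsynE.
ND-51: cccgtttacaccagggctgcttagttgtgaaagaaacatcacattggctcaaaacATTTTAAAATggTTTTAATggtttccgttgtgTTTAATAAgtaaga
SdhC: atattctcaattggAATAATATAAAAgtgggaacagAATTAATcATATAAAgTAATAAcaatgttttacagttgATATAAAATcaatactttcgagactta
COX7B: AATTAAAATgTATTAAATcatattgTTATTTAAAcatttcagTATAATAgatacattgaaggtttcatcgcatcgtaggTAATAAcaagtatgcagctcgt
ATPsynE: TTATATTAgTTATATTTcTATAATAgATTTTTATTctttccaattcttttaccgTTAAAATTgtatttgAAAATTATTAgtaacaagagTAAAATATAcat

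The share of G and C was 35.6% in the ND-51 window, 26.7% at COX7B, 22.8% at SdhC and 16.8% at ATPsynE. Over all 9 member windows it ran from 16.8 to 44.6%, the highest being COX5A, with a median of 24.8%, against a median of 29.7% over the 1595 nuclear IDR summits. The number of runs of 6 or more A or T letters was 3 at ND-51, 5 at SdhC and at COX7B, and 7 at ATPsynE. None of these 4 windows held a searched motif.

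The searched motifs were the homeodomain and NK-class form TAATTA, the form TAATTG, the form TAAGTG and the form CAAGTG, the DNA replication-related element (DRE) TATCGATA, the E-box CACGTG, and an element described upstream of Drosophila nuclear respiratory genes, taken as TTACATAA, TTACGTAA or TTATATAA. Both strands were read, and none of these forms contains another. A motif was present in 4 of the 9 member windows, and 3 of the motifs are shown as 30 bases with the motif in capitals, chosen because they lay outside exons. ND-39 held TAATTG at chr3L:20493557-20493586 (plus strand), ND-24 held TAATTA at chrX:17632192-17632221 (plus strand) and ND-SGDH held TTATATAA at chr3L:12138652-12138681 (minus strand).
ND-39: taagtactctttTAATTGaaattcgaaatg
ND-24: tgaatattaattTAATTAcaagttttattt
ND-SGDH: caaaatggattTTATATAAaaatttagatc

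The fourth window, at COX5A, held TAATTG. In the member windows TAATTA occurred in 1 of 9, against 11.2% of all nuclear IDR windows. TAATTG occurred in 2 of 9, against 12.2%, and the respiratory gene element in 1 of 9, against 2.51%. The other forms were found in none of the 9 windows, and in 5.45% (TAAGTG), 4.01% (CAAGTG), 1.25% (DRE) and 0.502% (E-box) of all nuclear IDR windows. A match describes the letters and does not show a site of binding, and with 9 windows a share moves in large steps.

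Promoters, taken from 250 bp before to 50 bp after the gene's start, gave the same search over all members. TAATTA was in 21 of the 84 member promoters (25.0%), against 20.5% of all protein-coding promoters, and TAATTG in 24 (28.6%), against 25.3%. TAAGTG was in 11 (13.1% against 15.0%) and CAAGTG in 12 (14.3% against 17.2%). The DRE was in 9 (10.7% against 9.37%) and the E-box in 4 (4.76% against 4.24%). The respiratory gene element was in 5 member promoters (5.95% against 5.18%), all of them complex I genes, and 1 of these 5, ND-SGDH, had an IDR summit. Median G+C content was 34.4% in member promoters and 37.9% in all promoters.

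The 9 genes amounted to 10.7% of the members (interval 5.74 to 19.1%), against 12.2% of all protein-coding genes. Members are short genes, with a median length of 1097 bp against 2177 bp for the other protein-coding genes, and a longer locus offers more room for a summit. The share of genes with a summit was therefore also taken in 20 bins of locus length, and the shares of non-member genes in the bins of the members were summed. This length-standardised expectation was 6.56 genes, or 7.81%, which lay inside the interval of the observed share. The observed count was 1.37 times the expectation. A summit within 500 bp of the gene's own start was found for 7 members, or 8.33% (4.1 to 16.2%), against 9.04% of all genes and an expectation of 5.57.

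By complex, the count was 4 of 40 for complex I against an expectation of 3.24, 2 of 4 for complex II against 0.394, 0 of 9 for complex III against 0.608, 2 of 16 for complex IV against 1.15 and 1 of 15 for complex V against 1.17. The complex II share rests on 4 genes, and its interval ran from 15.0 to 85.0%. For complex III the interval reached 29.9%. None of the 21 paralogs had an IDR summit, where 1.25 were expected from their lengths and the interval reached 15.5%. Without the paralogs the count was 9 of 63, or 14.3% (7.7 to 25.0%), against an expectation of 5.31. Complexes were not tested against each other, because genes are not replicates.

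**Figure D1:**
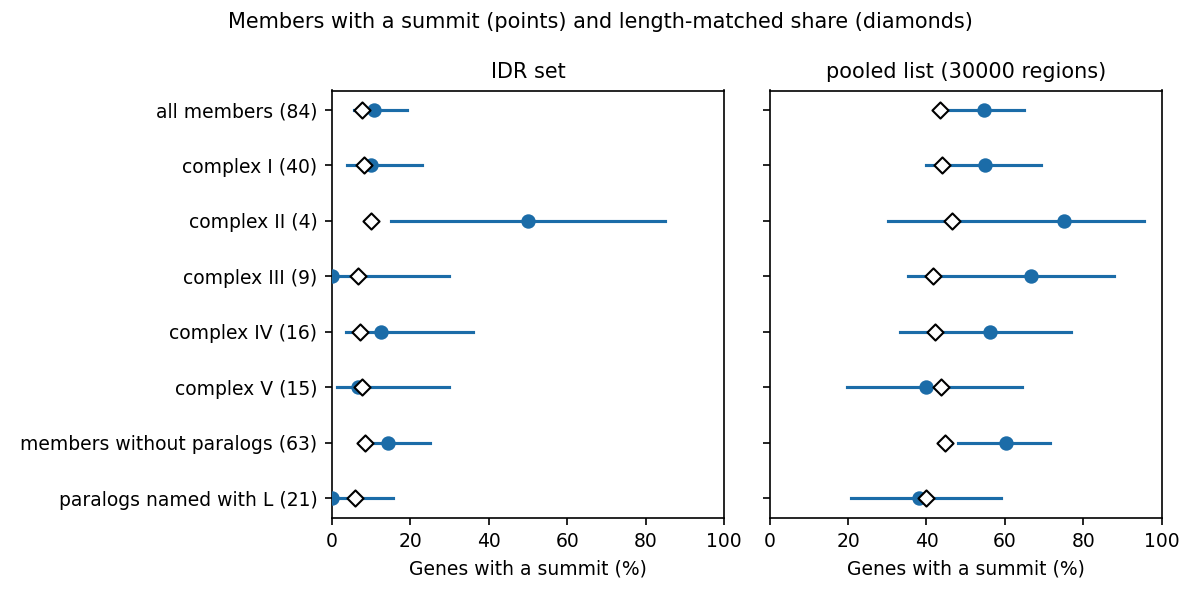
Share of genes with a summit (x axis, percent) in the IDR set and in the pooled list, for all members, each complex, the members without paralogs and the paralogs, with gene numbers in parentheses. Points are observed shares, lines are 95% Wilson intervals and open diamonds are the length-standardised expectations. In the IDR set the diamond for all members, 7.81%, lies inside the interval around 10.7%, and complex III and the paralogs sit at 0.

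Complex I had the 3 highest signals among the members. ND-51 (FBgn0031771) encodes the flavoprotein subunit at which NADH is oxidised. Its region, 2L 6062676 to 6063111, had a signal of 126.3 and rank 608 of 1607, with the summit 137 bp upstream of ND-51 and 95 bp upstream of the divergent gene CG13994. At this region the replicate 2 list gave 57.4 (rank 931 of 30000) and the replicate 3 list 63.9 (rank 526). Both replicates thus placed it among their 1607 strongest regions, with summits 9 bp and 15 bp from the pooled summit.

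ND-24 (FBgn0030853) encodes an iron-sulphur partner of ND-51 in the NADH-oxidising module. Its region, X 17631970 to 17632405, had a signal of 116.8 (rank 729) and a summit in an intron, 99 bp downstream of the ND-24 start and 141 bp upstream of corolla, a gene of the synaptonemal complex. Replicate 2 gave 70.6 (rank 589) and replicate 3 gave 42.9 (rank 1297). ND-51 and ND-24 were both within the stronger part of the IDR set, above the median signal of its nuclear regions, and so was ND-39. The stronger part held 3 members against an expectation of 3.45, and ND-51 and ND-24 were set together after their values were seen.

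ND-39 (FBgn0037001) encodes an accessory subunit of complex I. The region at 3L 20493387 to 20493822 had a signal of 120.0 (rank 680), but its summit lay 1523 bp inside the gene, in an intron of ND-39 and of the overlapping gene ZnT77C, a zinc transporter gene by name. It was 115 bp upstream of a start of ZnT77C. Replicate 2 gave 77.2 (rank 492) and replicate 3 gave 35.5 (rank 2125), so that the region was outside the 1607 strongest of replicate 3.

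ND-SGDH (FBgn0011455), an accessory subunit of the membrane arm, had the reverse order. The signal of its region, 3L 12138490 to 12138925, was 100.5 (rank 976), with the summit 124 bp upstream of ND-SGDH and 160 bp upstream of RhoGAP68F. Replicate 3 gave 70.8 (rank 425), and replicate 2 gave 28.5 (rank 4299). This was the lowest replicate 2 signal among the 9 regions and the highest of replicate 3.

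Complex II had 2 of its 4 genes in the set. SdhA (FBgn0261439) encodes the flavoprotein that oxidises succinate. Its region, 2R 19396639 to 19397074, had a signal of 105.2 (rank 894), but the summit lay 886 bp upstream of SdhA and 85 bp upstream of the neighbour cer. Replicate 2 gave 57.7 (rank 927) and replicate 3 gave 43.8 (rank 1238), the latter with a summit 189 bp from the pooled one.

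SdhC (FBgn0037873) encodes a membrane anchor of complex II. At 3R 11209729 to 11210164 the signal was 86.2 (rank 1315), with the summit 98 bp upstream of SdhC and 300 bp upstream of Tctp. Replicate 2 gave 37.8 (rank 2193) with a summit 185 bp away, and replicate 3 gave 53.4 (rank 767) within 3 bp. The other anchor gene, SdhD, had no IDR summit, but its pooled region 38 bp upstream of its start had a signal of 50.7 (rank 4333), with 36.8 in replicate 2 and 24.1 in replicate 3. SdhB, the iron-sulphur subunit gene, had no region in any of the 3 lists of 30000.

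Complex IV contributed COX7B and COX5A, which encode nuclear subunits of cytochrome c oxidase. COX7B (FBgn0040793) had a region at 3L 17425170 to 17425605 with a signal of 109.2 (rank 832) and a summit 89 bp upstream of its start and 171 bp upstream of Sec3, an exocyst gene. Replicate 2 gave 61.3 (rank 832) and replicate 3 gave 45.7 (rank 1128). COX5A (FBgn0019624) had the weakest of the 9 regions, at 3R 11819131 to 11819566, with a signal of 80.4 (rank 1517), close to the lowest nuclear IDR signal of 78.4. Its summit was 10 bp upstream of COX5A and 10 bp upstream of a start of glo, in the 5′ UTR of another glo transcript. Replicate 2 gave 35.7 (rank 2532) and replicate 3 gave 39.2 (rank 1636), both outside the 1607 strongest.

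Complex V was represented by ATPsynE (FBgn0038224), which encodes subunit e of the membrane part of ATP synthase. Its region at 3R 14326622 to 14327057 had a signal of 85.7 (rank 1333), with the summit 107 bp upstream of ATPsynE and 151 bp upstream of Afti. Replicate 2 gave 48.2 (rank 1308) and replicate 3 gave 40.7 (rank 1471).

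**Figure D2:**
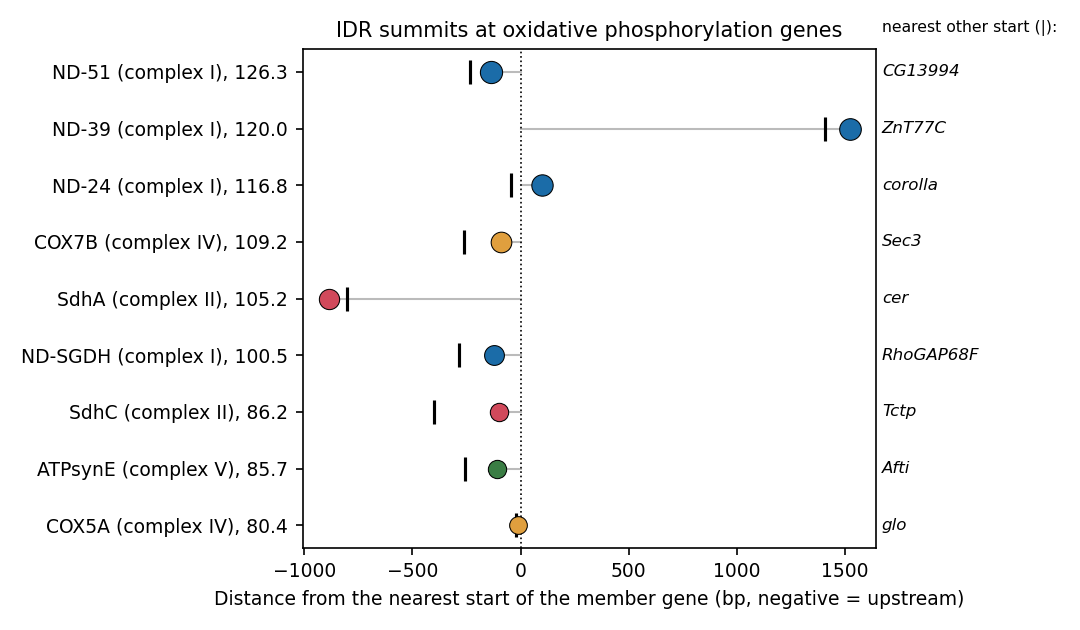
Distance in bp from the member's nearest own start to the IDR summit (x axis, negative is upstream) for the 9 members, ordered by signal, which is printed beside each gene and sets the point size. Vertical ticks mark the start of the nearest other protein-coding gene, named at the right. Apart from ND-39 and SdhA, the summits lie within 500 bp of the member's start.

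These regions were of middle to low strength within the set. Signal at the 9 summits ran from 80.4 to 126.3 with a median of 105.2, against a median of 117.7 for the strongest summit of the 1700 genes that had one. Their ranks ran from 608 to 1517. Of the 7 summits within 500 bp of the member's start, 6 lay upstream, at a median of 102.5 bp. Over all genes, 1201 of 1333 such pairs of gene and summit (90.1%) lay upstream, at a median of 175 bp. In these pairs a summit near several genes was counted for each gene.

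The neighbouring gene was close in every case. For 6 of the 9 regions the summit was nearer to the member's own start than to that of any other protein-coding gene, or equally near. CG13994, ZnT77C and cer were nearer than ND-51, ND-39 and SdhA. A region between divergent genes cannot be assigned to either of them from these lists.

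Members often share an upstream region with a divergent gene. A head-to-head neighbour, whose outermost annotated start lies on the other strand within 1 kb upstream of the member's outermost start, was present for 36 of the 84 members (42.9%), against 33.3% of other protein-coding genes. COX5A was not among them, since the outermost start of glo lies inside COX5A. Without the paralogs it was 33 of 63 (52.4%), and among the paralogs 3 of 21 (14.3%). Of the 36 members with such a neighbour, 6 had an IDR summit, or 16.7%, against 19.6% of all genes in this arrangement. Of the 48 without one, 3 had a summit, or 6.25%, against 8.48%. In both arrangements the member share was close to that of all genes, on counts of 6 and 3. With any annotated transcript start counted, an alternative chosen after seeing the data, 43 members (51.2%) had such a neighbour, against 36.1% of other genes. Of these, 8 had an IDR summit (18.6%, against 20.2% of all such genes), COX5A and ND-39 being added.

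Below the IDR set, the pooled list had a region at 46 of the 84 members, or 54.8% (44.1 to 65.0%), against 55.9% of all genes and a length-standardised expectation of 36.5 genes (43.5%). The expectation lay just below the interval. A summit within 500 bp of the own start was found for 40 members (47.6%), against 39.1% of all genes and an expectation of 26.6. The count was 22 of 40 for complex I against an expectation of 17.6, and 3 of 4 for complex II against 1.86. It was 6 of 9 for complex III against 3.75, 9 of 16 for complex IV against 6.77 and 6 of 15 for complex V against 6.54. The strongest pooled signal of these 46 members ran from 23.0 to 126.3, with a median of 44.6 against 45.1 over all genes with a pooled region. Since this list includes background, a region in it is not taken as bound.

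The pooled list kept 3172 nuclear regions when only q values below 5% were taken. A summit in these was found for 18 members, or 21.4% (14.0 to 31.3%), against 19.6% of all genes and an expectation of 10.3 (12.3%). The expected share lay below this interval. The 18 members comprised the 9 genes above and ATPsynbeta, COX4, COX5B, COX7AL2, COX8, ND-13B, ND-49, UQCR-6.4 and UQCR-Q. Complex IV had 6 of 16 in this count against an expectation of 1.77, complex I 6 of 40 against 5.15, complex II 2 of 4 against 0.624, complex III 2 of 9 against 0.927 and complex V 2 of 15 against 1.84. In the stronger part of the IDR set, its 797 nuclear regions above the median signal, 3 members remained (3.57%, against 6.72% of all genes and an expectation of 3.45), and these were ND-51, ND-39 and ND-24. The ratio of the members' count to its expectation was 0.869 in the stronger part, 1.37 in the IDR set and 1.74 at q values below 5%. In the whole pooled list it was 1.26. For the stronger part the expected share, 4.11%, lay inside the interval of 1.22 to 9.98%.

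Outside the IDR set, complex I had its highest pooled signal at ND-13B, an accessory subunit gene, with 71.0 (rank 1932) at 264 bp upstream. Replicate 2 gave 42.2 and replicate 3 gave 31.5. ND-49, a chromosome 4 gene for a core subunit near the quinone site, followed with 66.8 (rank 2216) at 304 bp upstream, and with 43.6 and 29.3 in replicates 2 and 3. ND-15, an accessory subunit gene of 41305 bp, held 16 pooled regions, and the strongest of them, with 54.9, lay 15455 bp from its start. The summits at ND-13B and ND-49 lay within 500 bp of the gene's own start, and the one in ND-15 did not. ND-49 has Ephrin as a head-to-head neighbour at 201 bp. Distances from these pooled summits to the starts of other genes were not read.

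In complex III the highest pooled signals were 61.2 at UQCR-Q (rank 2707), 58.0 at UQCR-6.4 (rank 3114) and 36.2 at UQCR-11 (rank 10583), which encodes the hinge subunit. None of these 3 pooled summits was within 500 bp of the gene's start, the nearest being 551 bp upstream of UQCR-6.4. That summit lay beyond the outermost start of the head-to-head neighbour CG42239, which is 45 bp from that of UQCR-6.4. Replicate 3 had no region at UQCR-6.4, where replicate 2 gave 33.6. At UQCR-11 the replicates had their strongest regions at different places, replicate 2 at 614 bp downstream of the start (rank 13233) and replicate 3 at 29 bp upstream (rank 2199).

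In complex IV, COX4 reached 73.3 (rank 1830) at 292 bp upstream, the highest pooled signal of any member outside the IDR set. Replicate 2 gave 22.5 there and replicate 3 gave 40.8. COX8 showed 66.7 (rank 2221) at 110 bp upstream, with 52.9 in replicate 2 and only 13.9 in replicate 3 (rank 29525). The paralog COX7AL2 had 64.0 (rank 2455) at 549 bp downstream of its start, in a locus of 5388 bp that held 6 pooled regions. In complex V, ATPsynbeta, the chromosome 4 gene for the catalytic subunit, had 68.1 (rank 2127) at 180 bp downstream. ATPsynD, which encodes a stalk subunit, had 39.6 (rank 8295) at 671 bp upstream. That summit lay beyond the outermost start of its head-to-head neighbour mRpL55, which is 95 bp from that of ATPsynD. ATPsyndelta had 37.1 (rank 9951) at 1306 bp downstream.

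**Figure D3:**
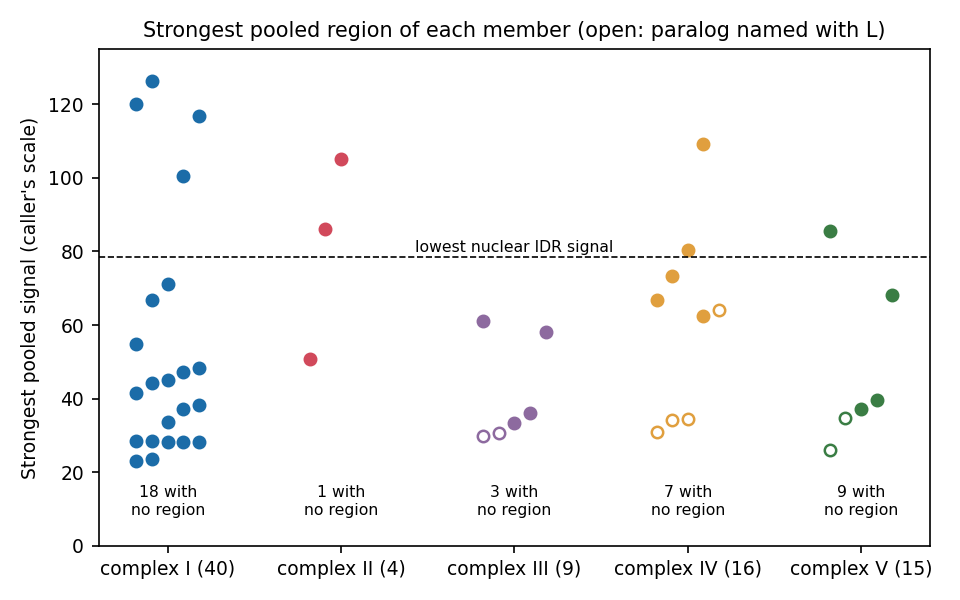
Signal of the strongest pooled region (y axis, caller's scale) for each member that had one, by complex, with the number of genes of each complex and the number without a region printed. Open points are paralogs, and the dashed line is the lowest nuclear IDR signal, 78.4. The 9 members above the line are those of the IDR set, and no complex III gene lies above it.

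The paralogs can be set beside the subunits they are named after. Of the 21, 8 had a pooled region, against an expectation of 8.35, and the median of their strongest signal was 32.5, against 49.5 for the 38 other members with a region. ND-24 had an IDR summit, whereas ND-24L had no region in any list. ND-51 had one too, whereas ND-51L1 had no region and ND-51L2 had only a replicate 3 region with a signal of 14.2. ATPsynbeta had 68.1 in the pooled list and ATPsynbetaL had no region in any list. COX4 had 73.3 and COX4L 34.1. Of the 21 paralogs, 17 are named after another member. In 8 of these pairs only the namesake had a pooled region, and in 3 both had one and the namesake's was stronger. In 3 pairs only the paralog had one (COX7AL2, COX7CL and ATPsynGL), and in 3 neither did. The paralogs were also shorter, with a median length of 703 bp against 1178 bp for the other members, and the difference from the other members was not tested.

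The replicates did not cover the members alike. Replicate 2 had a region at 55 of the 84, or 65.5%, against 61.4% of all genes and an expectation of 40.7. Replicate 3 had one at 41, or 48.8%, against 55.6% of all genes and an expectation of 35.9. A region in both was found for 34 members, in replicate 2 alone for 21, in replicate 3 alone for 7 and in neither for 22. Over all genes these shares were 46.0, 15.4, 9.67 and 29.0%, and for members they were 40.5, 25.0, 8.33 and 26.2%.

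All 7 members with a region in replicate 3 alone were paralogs. Among the 63 other members 32 had a region in both replicates, 18 in replicate 2 alone and none in replicate 3 alone, against length-standardised expectations of 20.7, 11.1 and 6.87. Among the 21 paralogs the counts were 2, 3 and 7, against 5.74, 3.18 and 2.66. The signals of the 7 in replicate 3 were low, from 14.2 at ND-51L2 to 21.2 at ND-20L, in a list whose strongest region per gene had a median of 25.1. With 1 library per replicate the part played by the library in this split was not tested.

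Where both replicates had a region, their strongest regions were not always the same one. In 22 of the 34 members the strongest summits of the replicates lay within 250 bp of each other, and in 12 they lay farther apart, among them ND-15, ATPsynbeta and ND-39. The strongest signals had a Spearman rho of 0.381 over the 34 and of 0.560 over the 22, a description over genes that are not independent replicates. Of the 1607 strongest regions of each replicate, those of replicate 2 reached 9 members (10.7%, against 12.6% of all genes and an expectation of 6.88), and those of replicate 3 reached 7 (8.33%, against 11.8% and 6.06). The 4 members in both were ATPsynE, COX7B, ND-24 and ND-51, and all 4 belong to the IDR set. SdhA was counted for replicate 2 only, because the replicate 3 region of rank 1238 near its IDR summit lay beyond 1 kb from its start. Replicate 2 alone placed COX8, ND-42 and ND-ASHI in its strongest regions without an IDR summit, and replicate 3 alone placed COX4 there. At ND-ASHI the replicate 2 region of 68.9 and the strongest replicate 3 region, of 15.4, had summits 1133 bp apart, and ND-42 had 56.0 in replicate 2 and no region in replicate 3.

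**Figure D4:**
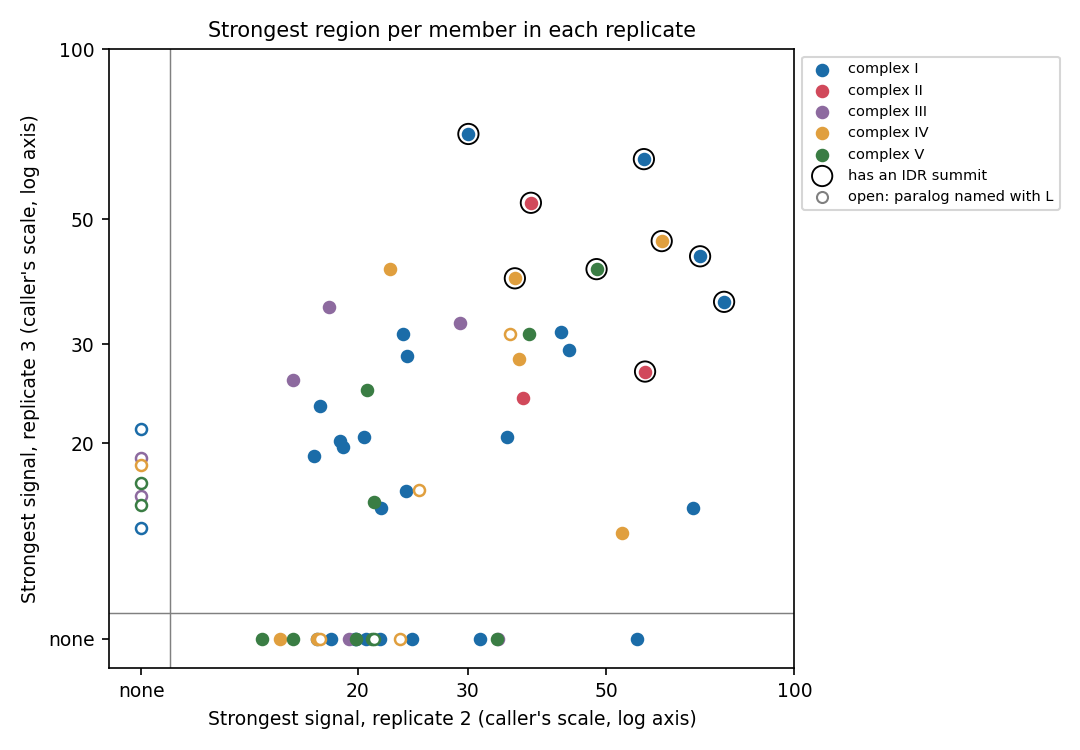
Signal of the strongest region within reach of each member in replicate 2 (x axis) and replicate 3 (y axis), both on the caller's scale and on log axes, with a margin for members that had none. Colours mark complexes, open points are paralogs and rings mark the 9 members with an IDR summit. For 12 of the 34 members with a region in both, the replicates' strongest summits lie over 250 bp apart. For SdhA the replicate 3 point is 26.8, because the region of 43.8 near its IDR summit lay beyond 1 kb from its start, and for ND-SGDH the replicate 2 point is a region of 30.1 at 844 bp upstream. The left margin holds 7 members, all of them paralogs, and the lower margin holds 21.

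Other genes of respiration were read from a list of 67 matched symbols. In these, 10 had an IDR summit, or 14.9%, against 12.2% of all genes and a length-standardised expectation of 7.91. Among 8 complex subunits outside the symbol rule, 1 had a summit, against an expectation of 0.702. This was blw, which encodes the alpha subunit of ATP synthase, with a summit 153 bp upstream and a signal of 182.9. Its signal was above that of every member in the IDR set, and replicates 2 and 3 gave 91.1 and 94.1. The partner of blw in the catalytic core, ATPsynbeta, stayed below the IDR set.

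Among 9 genes of electron carriers and exchange, both cytochrome c genes had a summit. Cyt-c-p had 152.1 at 921 bp downstream of its start and Cyt-c-d had 195.7 at 365 bp downstream. Of 9 genes of coenzyme Q synthesis, Coq4 had 319.4 at 136 bp upstream and Coq3 had 131.5 at 22 bp upstream. Of 12 assembly factors, CIA30, a factor for complex I, had 354.2 at 112 bp upstream (rank 63), and Ttc19, a factor for complex III, had 147.9 at 42 bp upstream. Among 15 genes of the citrate cycle and pyruvate dehydrogenase, Idh3g had 147.3, mAcon1 96.9 and kdn, which encodes citrate synthase, 95.2. The kdn summit lay 1469 bp downstream of a kdn start, not in the region between kdn and its head-to-head neighbour ND-B16.6, which had no IDR summit. Of 14 regulators of mitochondrial genes, including ewg, srl and TFAM, none had a summit, where 1.69 were expected. The count was 2 against an expectation of 1.15 for carriers and exchange, and 2 against 1.18 for coenzyme Q synthesis. It was 2 against 1.04 for assembly factors, and 3 against 2.15 for the citrate cycle and pyruvate dehydrogenase. These small counts were not tested. Distances from the summits at the listed genes, blw included, to the starts of other genes were not read. These summits are therefore not assigned to the listed genes alone.

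The genes of the mitochondrial ribosome, another large set of nuclear genes for mitochondrial proteins, had an IDR summit at 13 of 73, or 17.8% (10.7 to 28.1%). This stood against 12.2% of all genes and an expectation of 4.55 (6.24%), which lay below the interval. The count was 2.855 times the expectation, against 1.373 times for the oxidative phosphorylation genes. The interval of the ribosomal genes overlapped that of the oxidative phosphorylation genes, and the difference between the sets was not tested.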

How the data were processed

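ChIP-seq regions of Hmx-eGFP embryos were read from dm6 lists that the authors deposited, in 1 group of 2 biological replicates. Per the file headers and records, the signal value of each region (column 7) is the caller's own, deposited with a −log10 q value. Regions were called against a control alignment, and the pooled and replicate lists together gave the IDR set. Peak caller, aligner and IDR cutoff are not given here in the sources used. The lists hold no read counts, so depth is unknown. The deposited dm3 lists were not used here.

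Genes were taken from Ensembl release 115, annotation BDGP6.54, and sequence from the RefSeq copy of dm6. Positions are measured to the nearest annotated start of the gene. Replicate summits were matched to IDR summits within 250 bp. Intervals are 95% Wilson intervals. The length-standardised expectation used 20 bins of locus length. No test was made, since there is 1 group and genes are not replicates. Named genes were every member with an IDR summit, the 3 of each complex with the highest pooled signal among the others, listed respiration genes with an IDR summit, and singled-out genes chosen after their values were seen. Printed windows belonged to the highest signal of each complex not on arm 2R, and motif stretches were chosen after the search. The members and lists were chosen with earlier results of these data known. Alternatives changed the region list, the replicate, the members, the gene window and the length bins. Python 3.11.15, pandas 2.3.3, numpy 2.4.6 and matplotlib 3.10.9 were used.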

Additional observations from a re-analysis of the deposited data

How the results depend on the processing

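Over 7 results, 25 alternative values stayed close to the reported value (a count within 1.5 times, another value within the SD between the replicate lists) and 19 moved. The moved values include median signals on the scales of the single replicate lists, which cannot be compared with the reported median. They also include the median signals of the stronger part and of the longer list, which shift with the cutoff itself. In the stronger part of the IDR set, the members with a summit numbered 3, the ratio to expectation was 0.869, the own-start count was 2, the median signal 120.0 and the median position -19.0 bp (against -98 bp over the 7 promoter summits of the whole set). In the pooled list at a q value below 5% these were 18, 1.74, 13, 76.8 and -117 bp. Leaving out each replicate in turn gave 7 to 9 members, a ratio of 1.155 to 1.308, an own-start count of 7 in both, a median signal of 45.7 to 57.7 on the scales of the single lists, and a median position of -116 to -108 bp. The ratio was 1.70 without the paralogs, 1.57 with 2 kb upstream, where 3 further members (ATPsyndelta, COX7AL2 and COX7C) were added to the 9, and 0.878 without length bins. With only the gene of the nearest start counted, the median signal was 93.4. The cause of the other moves was not tested. No paired analysis was possible because there is a single group. Read depth is unknown, so a member without a region may be one below detection.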

Other observations

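The mitochondrial genome encodes further subunits of complexes I, III, IV and V and is outside the members. It held 12 of the 1607 IDR regions, which took ranks 1 to 12 with signal from 3206 to 23788, and each summit lay in a protein-coding gene (mt:CoI, mt:CoII, mt:CoIII, mt:Cyt-b, mt:ND4 or mt:ND5). In the replicate 2 list it held 16 regions (1478 to 14199), 14 of them at protein-coding genes, and in the replicate 3 list 4 (999.6 to 6977), all in mt:CoI. The level in untagged embryos was not analysed here.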
